A study of Arabidopsis thaliana with 108 samples.

Results

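Trimethylation of histone H3 at lysine 4 (H3K4me3) and at lysine 27 (H3K27me3) was mapped by ChIP-seq in seedlings of wild-type Arabidopsis thaliana, ecotype Col-0, and the peak lists of 2 H3K4me3 libraries and 2 H3K27me3 libraries were set against each other. These are 4 of the 108 samples of the series, all labelled as seedlings of 2 to 3 weeks. Each of the 37899 genes annotated on chromosomes 1 to 5, of which 27444 are protein-coding, was classed by its window, that is the gene body plus 1 kb upstream of its transcription start site (TSS). A gene was taken to carry a mark when a peak of that mark overlapped the window by at least 1 bp in both libraries, and was classed as H3K4me3 only, H3K27me3 only, both marks or neither mark.

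The series as a whole asked how the TRB proteins, Myb-domain factors that bind telomere-like repeats, act with the H3K4 demethylase JMJ14 and with the machinery of H3K27me3. Besides the wild type, peak lists of the same marks in seedlings of the trb1/2/3 triple mutant, of H3K4me3 in jmj14 seedlings, of both marks in fwa plants, and of FLAG-tagged TRB1, TRB2, TRB3 and JMJ14 in floral tissue were used for comparison, all in the Columbia-0 ecotype. The mutants carry T-DNA insertions, fwa is an epiallele with lost DNA methylation at the FWA promoter, and each FLAG fusion was driven by the promoter of its own gene, in the matching mutant for the TRB fusions. The fwa and FLAG plants were labelled floral and 5 to 6 weeks old, but the study's methods name leaves for the histone ChIPs of the zinc finger lines for which fwa is the control, so the tissue of the fwa libraries is uncertain. No label says that replicates came from separate plantings, so the spread between replicates may be technical.

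H3K4me3 sits over the start of genes that are transcribed and is placed by Trithorax-type methyltransferases such as SDG2. H3K27me3 is placed by Polycomb repressive complex 2 (PRC2), spreads over whole genes in plants, and keeps developmental regulators silent outside the tissue or stage where they act. A gene that carries both marks in a whole-seedling sample can do so on the same nucleosomes, on different parts of the gene, or in different cells, and peak lists from mixed tissue cannot tell these apart.

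The 2 H3K4me3 lists held 17126 and 16030 peaks on the chromosomes, and the 2 H3K27me3 lists held 10222 and 10198. A peak lay in the window of 20724 and 18883 genes (54.7% and 49.8% of all genes) for H3K4me3 and of 10973 and 11640 genes (29.0% and 30.7%) for H3K27me3. Replicates of a mark shared 90.2% of the genes found in either library for H3K4me3 and 89.7% for H3K27me3. In bases, the shared part was 70.5% for H3K4me3 and 84.1% for H3K27me3. The shorter H3K4me3 list, replicate 2, lay almost wholly inside the longer, with 97.8% of its bases covered by replicate 1. The lists hold no read counts, so the depth of the libraries is unknown.

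The label seedling was checked against the marks on tissue genes. All 7 genes of green tissue looked at (RBCS and LHCB genes) carried H3K4me3, as did 0 of 9 floral organ genes, 2 of 6 seed storage genes and 1 of 5 root genes. H3K27me3 lay on 5 of 7, 9 of 9, 6 of 6 and 4 of 5 genes of these lists. In libraries from other plants, H3K4me3 lay on 12, 2 and 12 of 13 floral MADS-box genes in fwa replicates 1, 2 and 3 and on 8 and 3 in trb1/2/3 replicates 1 and 2, against 2 and 2 in Col-0 seedlings. Of all protein-coding genes 65.3%, 64.2% and 66.8% had an H3K4me3 peak in fwa and 68.7% and 63.5% in trb1/2/3. The fwa replicates thus differed from each other at the genes that mark flowers, and the genotype and the tissue of fwa cannot be told apart in what follows.

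H3K27me3 peaks were wider and more variable in width than H3K4me3 peaks. The median width was 811 and 645 bp in the H3K4me3 libraries and 869 and 955 bp in the H3K27me3 libraries, a difference (H3K4me3 minus H3K27me3) of -184 bp. The middle of the H3K4me3 distribution was narrow, from 660 to 1013 bp between the quartiles in replicate 1 and from 492 to 807 bp in replicate 2. The H3K27me3 quartiles were 362 and 1924 bp in replicate 1 and 393 and 2104 bp in replicate 2. Peaks over 2 kb made up 1.35% and 0.405% of the H3K4me3 lists and held 3.66% and 1.56% of their covered bases. They made up 23.9% and 26.6% of the H3K27me3 lists and held 63.6% and 67.1% of the covered bases, and the widest H3K27me3 peaks reached 28007 and 49403 bp. The widest spanned the bodies of up to 11 and 17 protein-coding genes, against up to 4 and 3 for H3K4me3.

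**Figure D1:**
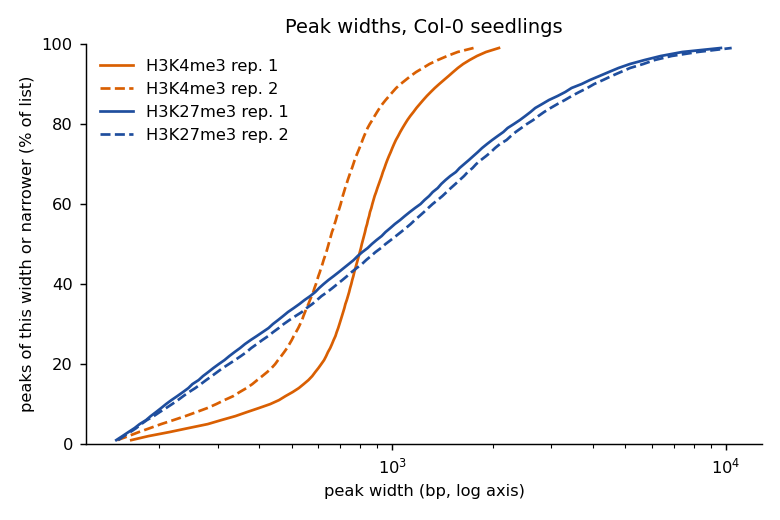
Share of the peaks of each list (y axis, percent) that were no wider than a given width (x axis, bp, log axis), for 2 H3K4me3 libraries (orange) and 2 H3K27me3 libraries (blue) of Col-0 seedlings, with replicate 1 solid and replicate 2 dashed. The H3K4me3 curves climb steeply around their medians of 811 and 645 bp, and the H3K27me3 curves cross them, with more narrow and more wide peaks.

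Together the H3K4me3 peaks covered 14.9 and 10.9 Mb and the H3K27me3 peaks 15.8 and 17.2 Mb. Although H3K4me3 marked more genes, by 22.4 percentage points on average, it covered 3.61 Mb less. Peaks per marked gene averaged 1.21 and 1.21 for H3K4me3 and 1.27 and 1.24 for H3K27me3. A peak lay outside the window of every protein-coding gene in 1.94% and 2.01% of H3K4me3 peaks and in 21.0% and 20.3% of H3K27me3 peaks. For the share of genes, covered length, median width and peaks per marked gene, the libraries of the 2 marks did not overlap. The exact two-sided permutation p was 0.333 for each, the smallest that 2 libraries against 2 can give, so these differences cannot pass a test here. The libraries did overlap in covered length with peaks of -log10 q of at least 10 (difference -2.30 Mb, p = 0.667) and in median width with every list shortened to the length of the shortest (-108 bp, p = 0.667), by the same exact permutation test. The order of the marks in peaks per gene turned round with peaks of -log10 q of at least 10, where H3K4me3 was higher by 0.0531, and by 0.0128 with peaks less than 1 kb apart joined. With every list shortened to the length of the shortest, the excess of H3K4me3 in genes was 6.08 percentage points and the difference in cover was -7.28 Mb.

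The marks also lay in different places along the gene. Of the summits that lay in the window of a protein-coding gene, 72.5% and 72.2% of H3K4me3 summits but 36.0% and 37.0% of H3K27me3 summits fell within 500 bp downstream of a TSS. This difference of 35.9 percentage points was far above the spread within a mark (SD 0.264 and 0.735, n = 2 each), with the same smallest exact p of 0.333. The rest of the gene body held 26.2% and 26.6% of H3K4me3 summits and 51.7% and 51.7% of H3K27me3 summits. Upstream of genes only were 1.27% and 1.26% of H3K4me3 summits and 12.4% and 11.3% of H3K27me3 summits.

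Along genes of the class H3K4me3 only, the share under an H3K4me3 peak was 50.03% and 26.5% at the TSS, reached 90.9% at 400 bp and 85.3% at 350 bp downstream in replicates 1 and 2, and was 8.21% and 5.55% at 2000 bp. Along genes of the class H3K27me3 only, the share under an H3K27me3 peak also had its highest point within the gene, 78.3% at 350 bp and 81.7% at 300 bp. It declined far more slowly, to 43.4% and 46.3% at 2000 bp, and stood at 44.9% and 47.9% at 1000 bp upstream. In genes of 1 kb or longer cut into 10 equal parts, H3K4me3 covered 83.7% and 74.6% of the second part and 4.21% and 2.21% of the last on genes with H3K4me3 only. H3K27me3 covered 75.2% and 79.2% of the third part and still 48.9% and 53.7% of the last on genes with H3K27me3 only. The gene body was covered over at least 90% of its length in 3.44% and 1.56% of H3K4me3-only genes by H3K4me3 and in 45.8% and 50.6% of H3K27me3-only genes by H3K27me3.

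**Figure D2:**
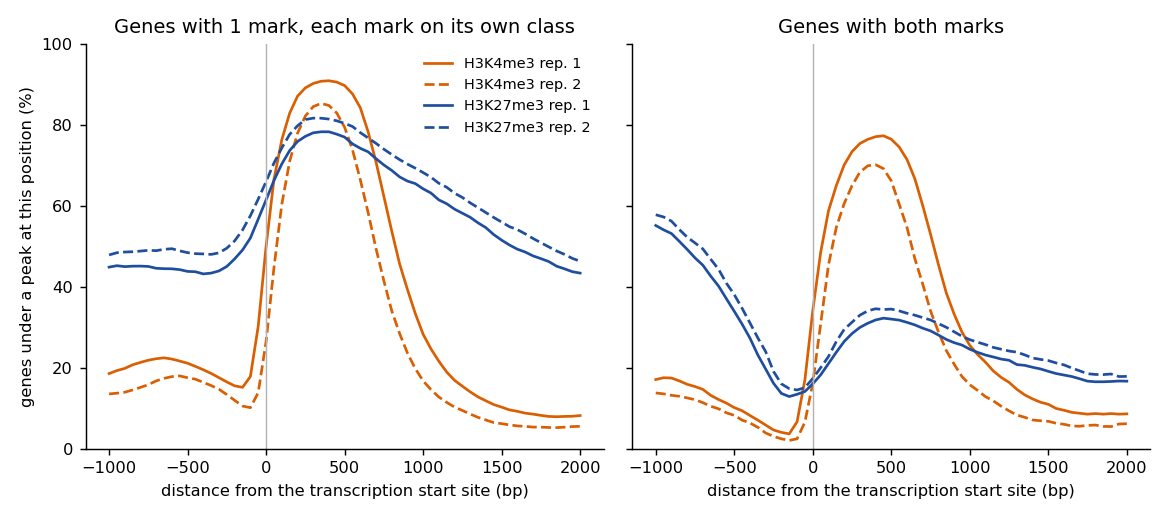
Share of protein-coding genes (y axis, percent) that lay under a peak at each distance from the TSS (x axis, bp), with H3K4me3 in orange and H3K27me3 in blue, replicate 1 solid and replicate 2 dashed. On the left each mark is shown on the genes that carry it alone. There H3K4me3 reaches 90.9% and 85.3% just inside the gene and H3K27me3 stays high along it. On the right, on genes with both marks, H3K27me3 has its highest values in the range shown at 1000 bp upstream, 55.2% and 57.8%. That point is the edge of the range and of the window that defines the class, so the values may be higher further out.

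Of all genes, 18785 (49.6%) carried H3K4me3 and 10695 (28.2%) carried H3K27me3 in both libraries. The class H3K4me3 only held 15824 genes (41.8%), H3K27me3 only 7734 (20.4%), both marks 2961 (7.81%) and neither mark 11380 (30%). Among protein-coding genes these classes held 13862, 5956, 2712 and 4914 genes, which is 50.5%, 21.7%, 9.88% and 17.9%. In all, 60.4% of protein-coding genes carried H3K4me3 and 31.6% carried H3K27me3. H3K27me3 was found on 16.4% of the protein-coding genes with H3K4me3 and on 54.8% of those without it. Since neighbouring genes share peaks, genes are not independent of each other, and this is a description of these lists. A mark was seen in only 1 of its 2 libraries at 523 genes of the class H3K4me3 only, 637 of H3K27me3 only and 1367 of neither mark. Outside protein-coding genes, neither mark was found on 3487 pseudogenes (89.0%), and of the miRNA genes 62 carried H3K4me3 only, 108 H3K27me3 only, 27 both and 129 neither. By chromosome, genes of both marks made up 8.87% to 10.4% of protein-coding genes, and genes with neither mark 21.2% on chromosome 2 and 16.9% to 17.9% on the others.

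The classes differed in gene structure. The median length of protein-coding genes was 2478 bp with 5 exons for H3K4me3 only, 1583 bp with 3 exons for H3K27me3 only, 2146 bp with 4 exons for both marks and 1398 bp with 3 exons for neither mark. Over all protein-coding genes the median was 2078 bp with 4 exons. Genes of 1 exon made up 12.7% of the H3K4me3-only class and 26.4% of the H3K27me3-only class. The part of gene length in these classes was not tested.

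Genes of a class often lay next to each other along the chromosome. Windows of neighbours can overlap, since the upstream 1 kb held part of another protein-coding gene in 51.6% of protein-coding genes. The same peak can then class both neighbours, and the part of this overlap was not tested. The next protein-coding gene was of the same class for 65.4% of H3K4me3-only genes, 47.6% of H3K27me3-only genes and 25.3% of genes with both marks, where the classes made up 50.5%, 21.7% and 9.88% of all. Runs of 5 or more neighbours of 1 class numbered 879 for H3K4me3 only (6189 genes), 165 for H3K27me3 only (1098 genes) and 4 for both marks (23 genes). The longest run of H3K4me3-only genes had 24 members on chromosome 5, from AT5G08490 to AT5G08690, where the commonest product, an ATP synthase alpha/beta family protein, occurred 3 times. The longest H3K27me3-only run had 22 members on chromosome 3, from AT3G21880 to AT3G22057 (TAIR10, chr3:7706257-7770261), of which 6 encode DUF26 cysteine-rich secretory proteins. Among H3K27me3-only runs of 17 genes, 1 held 7 TRAF-like genes (AT3G58240 to AT3G58400) and 1 held 6 genes of a P-loop nucleoside triphosphatase family (AT1G33811 to AT1G33960).

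Genes with both marks mostly carried them in different places. Of the 2712 protein-coding genes, 683 (25.2%) had a stretch under peaks in all 4 libraries and 2029 (74.8%) had none. The largest group, 1437 genes (53.0%), carried H3K4me3 on the gene body and H3K27me3 only in the upstream 1 kb. A further 394 (14.5%) had the reverse arrangement, and 869 (32.0%) carried both marks on the body. Where H3K4me3 lay only upstream of a body marked by H3K27me3, the upstream 1 kb held part of another protein-coding gene in 371 of 394 cases (94.2%), against 51.6% of all protein-coding genes. For genes with both marks on the body that share was 30.5%. For the largest group, with H3K27me3 only upstream, it was 60.2%, against 61.1% of H3K4me3-only genes. Counted on the gene body alone, 929 genes of all types carried both marks, and 767 when the same bases had to be under all 4 lists, against 2961 by the window. Over the genome, the bases under all 4 lists came to 0.293 Mb, which is 2.75% of the bases with H3K4me3 in both libraries and 1.94% of those with H3K27me3.

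On the 869 genes with both marks on the body, H3K4me3 lay nearer the start. The centre of the covered bases stood at a median of 35.6% and 33.5% of the gene length for H3K4me3 and at 48.8% and 49.3% for H3K27me3, counted from the TSS. H3K4me3 was the mark nearer the start in 570 genes (65.6%) and H3K27me3 in 296 (34.1%). H3K4me3 covered a median of 41.1% and 25.9% of these bodies, and H3K27me3 42.6% and 51.1%. Over the 683 genes of the class with bases under all 4 lists, these bases came to a median of 341 bp per gene (quartiles 199 and 577 bp) and to over 1000 bp in 48 genes.

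Of 30 regulators of flowering and flower organs in 3 lists, 6 carried H3K4me3 only, 18 H3K27me3 only, 1 neither mark and 5 (16.7%) both, against 9.88% of protein-coding genes. The florigen genes FT and TSF, the shoot identity gene TFL1 and the flower meristem gene LFY were H3K27me3 only, over 2552 and 2870, 2725 and 2875, 2373 and 2373, and 2831 and 3157 bp. CO, which activates FT in long days, and GI carried H3K4me3 only, over 388 and 340 and over 753 and 638 bp. The 5 genes with both marks each had a shared stretch near the start. FLC, a MADS-box repressor of flowering that is silenced by PRC2 in the cold, had 490 and 412 bp under H3K4me3 peaks and 6905 and 6881 bp under H3K27me3 peaks. Its H3K4me3 reached from 1 to 490 bp downstream of the TSS in replicate 1 and from 57 to 468 bp in replicate 2, while H3K27me3 ran from 1000 bp upstream to 6066 and 6043 bp downstream in a gene of 6067 bp. SOC1, a MADS-box activator of flowering, had 1821 and 1261 bp under H3K4me3 and 3268 and 3152 bp under H3K27me3. AGL24, a partner of SOC1, had 605 and 488 bp against 4210 and 4210 bp, FUL, a MADS-box gene of fruit and meristem identity, had 670 and 613 bp against 4590 and 4665 bp, and SEP4 had 851 and 707 bp against 2397 and 2240 bp. In each of these 5 genes all H3K4me3 bases lay on the gene body, in a block that began at most 224 bp from the TSS.

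The FLC relatives were split between the classes. MAF1, MAF2 and MAF3 carried H3K4me3 only, over 840 and 689, 949 and 647, and 1016 and 893 bp. MAF4 and MAF5 carried H3K27me3 over 2719 and 2829 and over 3491 and 3200 bp, with H3K4me3 on MAF4 in replicate 1 alone (456 bp). MAF2 to MAF5 stand in 1 array on chromosome 5, so the change of mark fell between MAF3 and MAF4. SVP, which encodes the partner of FLC, carried H3K4me3 only (1539 and 1259 bp).

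By the longest unbroken stretch under all 4 lists, the leading genes with both marks were UBQ10 (polyubiquitin) with 1994 bp, BBX14 (a B-box zinc finger gene) with 1978 bp, BLH4 (a BEL1-like homeodomain gene) with 1709 bp, AT5G25280 (a serine-rich protein) with 1611 bp and AT2G20670 (a DUF506 protein) with 1595 bp. UBQ10, a common reference gene, had 3332 and 2128 bp of H3K4me3 and 3128 and 3290 bp of H3K27me3 in a window of 3332 bp. BLH4 had 1975 and 1733 bp of H3K4me3 and 5221 and 5024 bp of H3K27me3. Of 15 housekeeping genes, 13 carried H3K4me3 only, and only UBQ10 and ACT2 were in the class of both marks, ACT2 with 1305 and 894 bp of H3K4me3 and 619 and 533 bp of H3K27me3.

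Of 45 genes of the histone-modifying machinery and the TRB and NAC partners, 36 carried H3K4me3 only, 4 H3K27me3 only and 5 (11.1%) both marks, a share close to the 9.88% of all protein-coding genes. Among the 5, ATXR3, known as SDG2 and a main enzyme of H3K4me3 in Arabidopsis, had 965 and 921 bp under H3K4me3 and 7102 and 7402 bp under H3K27me3 in a gene of 11182 bp. On ATXR3, H3K27me3 covered 5757 and 1309 bp in trb1/2/3 and 0 and 312 bp in fwa. EMF1, a Polycomb partner that keeps flower genes silent, had 1031 and 816 bp under H3K4me3 and 2563 and 2511 bp under H3K27me3. FIE, the PRC2 WD40 subunit, had H3K4me3 on its body (737 and 555 bp) and H3K27me3 only at the far end of its upstream part (247 and 312 bp, ending 754 and 689 bp before the TSS). Of the other PRC2 genes, CLF, SWN, EMF2, VRN2 and MSI1 carried H3K4me3 only, and MEA and FIS2, whose products act in the endosperm, carried H3K27me3 only, over 3780 and 4415 and over 1792 and 2726 bp. All 10 genes of H3K4 methyltransferases and their partners carried H3K4me3, as did 6 of 7 H3K4 demethylases and all 4 H3K27 demethylases, where 60.4% of all protein-coding genes did. The exception was JMJ15, with H3K27me3 over 1549 and 1516 bp. JMJ14, TRB1, TRB2, TRB3, NAC050 and NAC052 each carried H3K4me3 only, but for 18 bp under an H3K27me3 peak of replicate 1 at TRB1.

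Most of the listed regulators of flowers, meristems and seeds were in the class H3K27me3 only. All 13 floral organ MADS-box genes carried H3K27me3, where 31.6% of protein-coding genes did, and 11 of them carried it alone. AG, the class C gene of stamens and carpels, lay under H3K27me3 over 6684 and 6684 bp, its whole window, and had no H3K4me3 peak in either library. STK, an ovule identity gene, was likewise covered over its whole window of 5907 bp, and SEP3 over 3588 bp, AP1 over 5056 bp. AP3, the class B gene of petals and stamens, had the least cover of the 13, with 2118 and 2138 bp, all on its body.

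All 4 class I KNOX genes, which keep the shoot meristem undifferentiated, were in this class, with 4482 and 4482 bp of H3K27me3 on STM, 4461 and 4461 bp on KNAT1, 6464 and 6346 bp on KNAT2 and 4797 and 5489 bp on KNAT6. KNAT6 also had 522 bp under H3K4me3 in replicate 1 and none in replicate 2. Of 15 WOX homeobox genes, 11 carried H3K27me3 only, among them WUS (2549 and 2593 bp), which sets the stem cell niche of the shoot, and WOX5 (2161 and 2161 bp), its counterpart in the root. WOX13 alone carried H3K4me3 only (848 and 618 bp), WOX2 carried both marks, and WOX10 and WOX14 neither. The seed regulators LEC1, LEC2, FUS3 and ABI3 carried H3K27me3 only, FUS3 over 3385 bp and ABI3 over 4816 bp in both libraries, and L1L, the relative of LEC1, carried neither mark. All 10 seed storage and oil body genes carried H3K27me3, with H3K4me3 in the window of SESA1 and OLEO1 only, where it lay upstream and off the gene body.

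The 5 bHLH genes of the stomatal lineage were split between the marks. SPCH, MUTE and FAMA, which act one after another in a few epidermal cells, carried H3K27me3 only, over 4037, 2818 and 4094 bp in both libraries. Their shared partners SCRM and SCRM2 carried H3K4me3 only, over 1755 and 1460 and over 2111 and 1572 bp. The PIN auxin transporter genes were split too. PIN3, PIN4 and PIN7 carried H3K4me3 over 2100 and 2116, 2071 and 1887, and 1812 and 1676 bp, and PIN2, PIN5, PIN6 and PIN8 carried H3K27me3 only. Of 11 YUCCA genes of auxin synthesis none carried H3K4me3 only, 7 carried H3K27me3 only, YUC6 both, and YUC3, YUC7 and YUC11 neither.

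By cover, the leading H3K27me3-only genes were AT2G08986 (8936 and 8930 bp, with H3K4me3 in replicate 2 alone), GSL09, a glucan synthase-like gene (8893 and 9195 bp), MEE57, of a DNA methyltransferase family (7210 and 7210 bp), and the TIR-NBS-LRR resistance genes AT5G45230 (7157 and 7157 bp) and AT5G45200 (7047 and 7330 bp). The leading H3K4me3-only genes had shorter cover. They were BGAL1, a beta-galactosidase gene (4031 and 4644 bp), PHOT2, the blue-light receptor phototropin 2 (5453 and 3691 bp), SIP2 (3408 and 3867 bp), AT2G44140, a peptidase C54 gene (3576 and 3281 bp), and DIN10 (3112 and 3243 bp), which also had 520 bp under H3K27me3 in replicate 2 alone. SIP2 and DIN10 both belong to the raffinose synthase family.

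**Figure D3:**
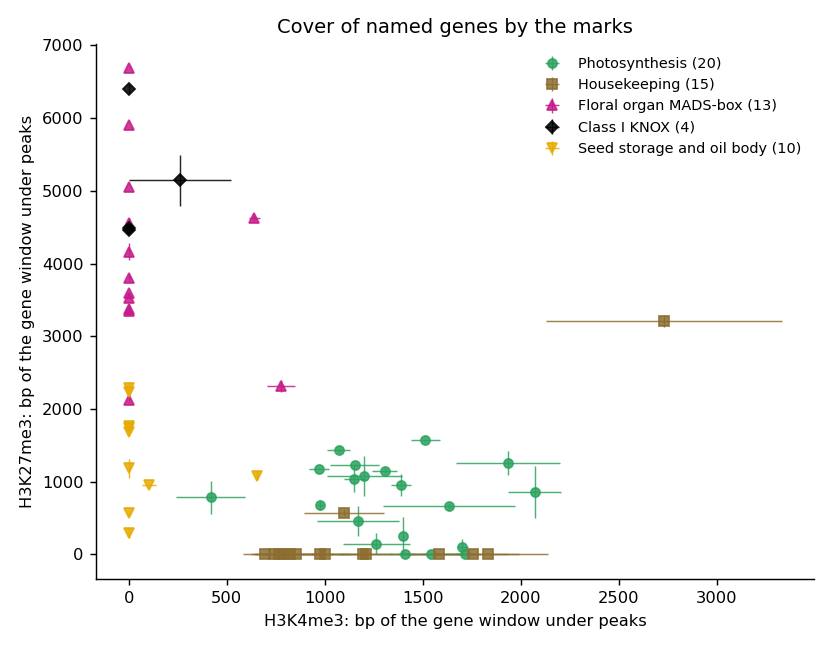
Each point is a gene of 5 lists, placed by the bp of its window (gene body plus 1 kb upstream) under H3K4me3 peaks (x axis) and under H3K27me3 peaks (y axis) in Col-0 seedlings, as the mean of 2 libraries with lines to both values. Housekeeping genes lie along the x axis except UBQ10 and ACT2, floral MADS-box, KNOX and seed genes lie along the y axis except FUL, SEP4, KNAT6, SESA1 and OLEO1, and 14 of 20 photosynthesis genes lie away from both axes in both libraries.

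The 20 listed genes of photosynthesis carried both marks more often than the other lists. All 20 carried H3K4me3, and 14 of them (70.0%) carried H3K27me3 in both libraries, where 31.6% of protein-coding genes did and 9.88% carried both marks. The list was chosen with earlier results of these data known. Of 53 chlorophyll-binding and photosystem genes outside it, named by their product, 15 carried H3K27me3 and 11 both marks. The share of the list therefore does not stand for photosynthesis genes in general. LHCB2.1, a light-harvesting protein gene of photosystem II, had 1014 and 1132 bp under H3K4me3 and 1413 and 1448 bp under H3K27me3, of which 995 bp lay under all 4 lists. LHCA4, of the photosystem I antenna, had 1589 and 1440 bp under H3K4me3 and 1576 and 1564 bp under H3K27me3, and RBCS1A, a Rubisco small subunit gene, 1370 and 1244 bp and 1117 and 1191 bp. In 13 of the 14 genes, all but LHCB2.3, the marks shared bases in all 4 libraries. LHCA3, LHCB4.1 and RBCS3B had H3K27me3 in replicate 2 only, and RBCS1B, PSBO1 and PSBO2 had none.

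The H3K27me3 peaks on photosynthesis genes were weaker than those on developmental regulators and were mostly missing from the other plants. The strongest H3K27me3 peak of each gene had a median fold enrichment at the 38.1 and 40.8 percentile of its list for photosynthesis genes. For floral MADS-box genes it stood at the 98.4 and 98.1 percentile. The distance was smaller for other genes, at 59.9 and 73.6 for root epidermis and hair genes and 66.4 and 68.2 for all protein-coding genes with both marks. H3K27me3 peaks lay on 3 and 2 of the 20 genes in trb1/2/3 seedlings and on 2 and 2 in the fwa libraries, against 14 and 17 in Col-0 seedlings. Of all protein-coding genes 29.7% and 28.7% had an H3K27me3 peak in trb1/2/3 and 29.4% and 31.7% in fwa, against 32.3% and 34.3% in Col-0. RBCS2B was among them in each of the 4 libraries, with 541 and 577 bp in trb1/2/3 and 547 and 322 bp in fwa, against 861 and 1212 bp in Col-0. The floral MADS-box genes had H3K27me3 on 13 of 13 in all 6 H3K27me3 libraries. The family of 68 chlorophyll-binding and photosystem genes named by their product, of which 27 carried H3K27me3 in Col-0, shares 15 genes with this list, and 12 of the 27. Of these 27 genes, 18.5% and 18.5% had an H3K27me3 peak in trb1/2/3 and 14.8% and 14.8% in fwa. Without the listed genes, 15 remained, of which 33.3% and 33.3% had one in trb1/2/3 and 26.7% and 26.7% in fwa. For all 8668 protein-coding genes with H3K27me3 in Col-0 the shares were 84.8% and 82.6% in trb1/2/3 and 86.1% and 91.5% in fwa. The sets of 27, 15 and 8668 genes were chosen by a peak in both Col-0 libraries, so each Col-0 library has a peak on all of them by the rule. The differences from trb1/2/3 and fwa were therefore not tested.

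Gene families sorted by their product names differed widely in the 2 marks. The share of genes with H3K4me3 ran to 94.0% in 83 splicing factors, 93.3% in 45 proteasome subunits, 92.6% in 68 chlorophyll-binding and photosystem proteins, 90.7% in 321 ribosomal proteins and 88.5% in 279 pentatricopeptide repeat proteins, which act in organelle RNA processing, where 60.4% of protein-coding genes had it. In the same families H3K27me3 lay on 10.8%, 13.3%, 39.7%, 17.1% and 15.1% of genes, where 31.6% of protein-coding genes had it. The share with H3K27me3 was highest in LOB-domain factors (68.3% of 41), F-box proteins (61.4% of 653), expansins (58.8% of 34) and pectin enzymes (57.7% of 253), in which H3K4me3 lay on 19.5%, 31.7%, 23.5% and 25.7%.

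Families of transcription factors differed from each other in class. H3K27me3 lay on 56.9% of 72 WRKY, 56.6% of 106 ERF/AP2, 55.6% of 180 MYB, 54.2% of 118 NAC, 54.2% of 120 MADS-box and 52.6% of 133 bHLH factors, but on 28.1% of 32 TCP factors, of which 78.1% carried H3K4me3. Both marks together were found on 17.9% of ERF/AP2, 16.8% of 208 homeobox and 16.7% of WRKY factors, against 9.88% of protein-coding genes. The highest share of both marks was in chlorophyll-binding and photosystem proteins (33.8% of 68), followed by histones (21.2% of 52). The first place rested on the photosynthesis list above, which held 12 of the 23 genes with both marks in that family. Outside the list, 11 of 53 genes of the family carried both marks, against 11 of 52 histones. Neither mark was found on 57.7% of 279 defensin-like and small cysteine-rich proteins, 45.9% of 74 B3-domain factors and 42.3% of 78 SAUR proteins, against 17.9% of protein-coding genes. Families of tandem genes share peaks, so these shares carry no test.

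**Figure D4:**
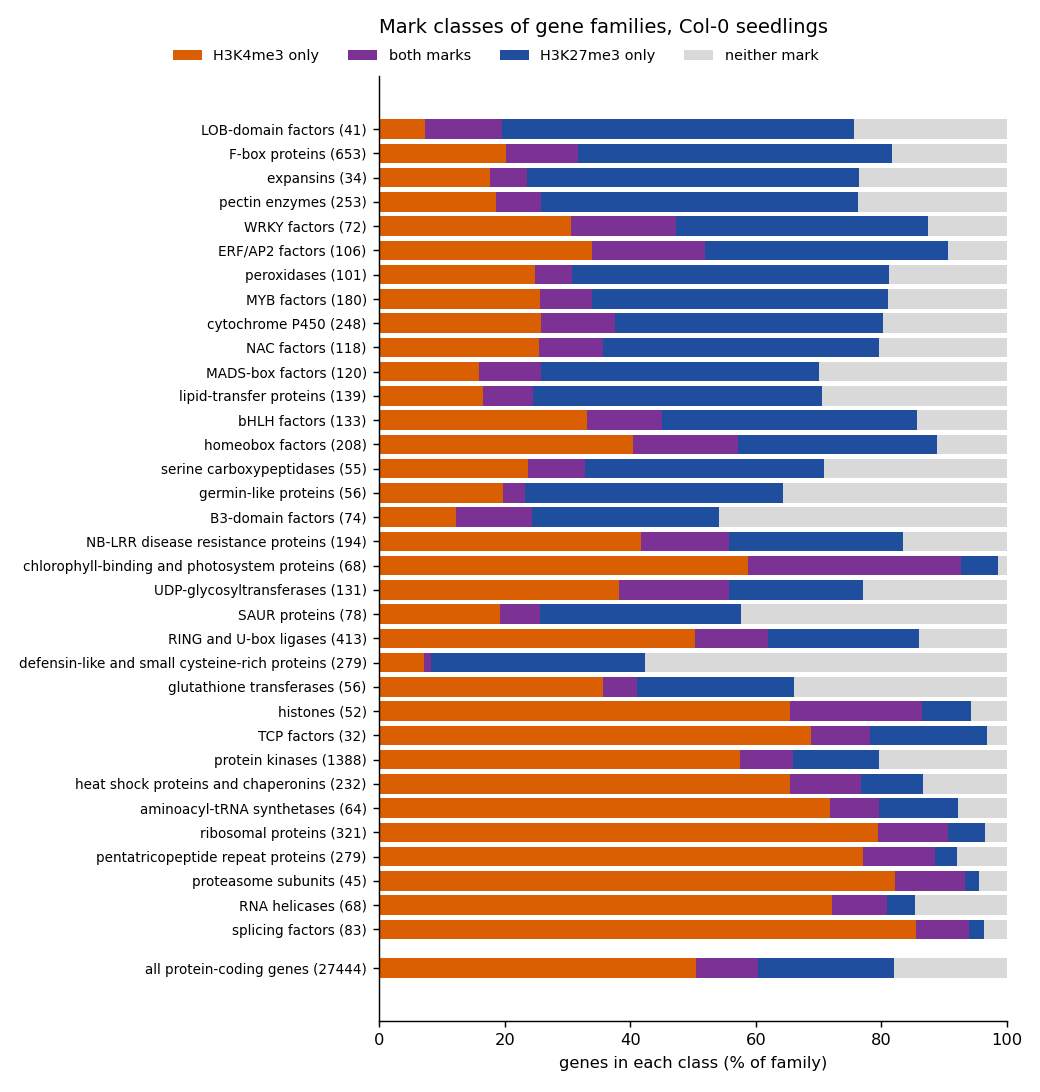
Share of the genes of each family (x axis, percent) in the classes H3K4me3 only (orange), both marks (purple), H3K27me3 only (blue) and neither mark (grey) in Col-0 seedlings, with the number of genes in brackets and families ordered by the share with H3K27me3. LOB-domain factors stand at the top with 68.3% under H3K27me3 and splicing factors at the bottom with 10.8%, and the lowest bar gives all protein-coding genes.

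The DNA around the start sites of the classes differed in short motifs tied to Polycomb. The RY element CATGCA is read by the B3 factors VAL1 and VAL2, which draw Polycomb complexes to their targets, and the telobox AAACCCTA is bound by the TRB factors. Motifs were searched on both strands within 500 bp of the TSS. CATGCA (or TGCATG) was present at 19.1% of H3K4me3-only genes, 41.3% of H3K27me3-only genes, 30.3% of genes with both marks and 29.8% of genes with neither mark, and at 26.97% of all protein-coding genes. Upstream of the TSS alone the shares were 12.7%, 25.3%, 21.1% and 16.8%, and 17.01% over all. AAACCCTA (or TAGGGTTT) went the other way in the whole window, with 27.1% of H3K4me3-only genes, 19.8% of H3K27me3-only genes, 25.7% of genes with both marks and 14.04% with neither, and 23.1% over all. In the upstream part alone the telobox was present at 7.25% of H3K4me3-only and 9.02% of H3K27me3-only genes, so its order turned round there. GAGAGA (or TCTCTC), a repeat bound by BPC factors, was present at 82.8% of H3K4me3-only and 68.7% of H3K27me3-only genes, and at 76.7% of all.

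The upstream 200 bases of 5 H3K27me3-only genes, chosen after their values were seen, show such motifs under H3K27me3 peaks. They are given from 200 bases before to 1 base before the TSS on the strand of the gene (RefSeq, TAIR10.1), with CATGCA or TGCATG and AAACCCTA or TAGGGTTT in capitals.
PI (AT5G20240, chr5:6828704-6828903, plus strand): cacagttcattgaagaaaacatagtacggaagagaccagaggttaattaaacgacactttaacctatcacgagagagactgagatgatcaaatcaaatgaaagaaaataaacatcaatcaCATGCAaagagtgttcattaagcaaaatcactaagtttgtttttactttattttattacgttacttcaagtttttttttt
WUS (AT2G17950, chr2:7810812-7811011, minus strand): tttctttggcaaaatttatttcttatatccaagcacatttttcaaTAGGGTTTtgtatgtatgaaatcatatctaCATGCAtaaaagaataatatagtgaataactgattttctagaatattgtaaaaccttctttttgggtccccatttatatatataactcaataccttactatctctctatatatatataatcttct
FUS3 (AT3G26790, chr3:9856213-9856412, minus strand): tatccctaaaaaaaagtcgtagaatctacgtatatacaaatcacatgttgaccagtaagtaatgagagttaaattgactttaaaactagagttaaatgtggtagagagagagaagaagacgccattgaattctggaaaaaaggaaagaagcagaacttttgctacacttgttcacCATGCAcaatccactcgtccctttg
SESA3 (AT4G27160, chr4:13611596-13611795, plus strand): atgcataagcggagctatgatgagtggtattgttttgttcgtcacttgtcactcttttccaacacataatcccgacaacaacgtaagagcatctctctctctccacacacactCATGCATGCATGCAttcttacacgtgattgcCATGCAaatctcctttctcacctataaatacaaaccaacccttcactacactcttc
MYB36 (AT5G57620, chr5:23334567-23334766, plus strand): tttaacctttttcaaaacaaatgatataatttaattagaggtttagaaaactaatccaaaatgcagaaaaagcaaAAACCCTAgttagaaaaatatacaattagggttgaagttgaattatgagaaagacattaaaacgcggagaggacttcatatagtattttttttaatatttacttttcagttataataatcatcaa
The upstream sequences of PI (class B floral gene), WUS, FUS3, SESA3 (a 2S seed storage albumin gene) and MYB36 (a root endodermis regulator) lay under H3K27me3 peaks over all 200 bases in both libraries and under no H3K4me3 peak. In SESA3 there are 6 matches, the first beginning 87 and the last 56 bases before the TSS, and most of them overlap each other. Not all listed genes were like these 5. OLEO2, OLEO3 and YUC9, also H3K27me3 only, had CATGCA or TGCATG in the upstream 200 bases with 0 bp under H3K27me3 peaks. The motif also stood upstream of ATXR7, LDL2, SCRM and RBCS1B (H3K4me3 only) and of CASP5 and CUC1 (neither mark).

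Just inside the gene, where most teloboxes of H3K4me3-only genes lay, 30 bases around the site (telobox in capitals) are shown for a gene of each class with marks.
CLF (AT2G23380, chr2:9955113-9955142, plus strand): gcccaaacaaaTAGGGTTTaagagcccatt
AP3 (AT3G54340, chr3:20120947-20120976, minus strand): ttgtgtgatgcTAGGGTTTcgattatcatg
EMF1 (AT5G11530, chr5:3695967-3695996, plus strand): ccctttcgtctTAGGGTTTctcgaaaattc
The site of CLF, the main PRC2 methyltransferase gene, begins 32 bp downstream of the TSS and lay wholly under H3K4me3 peaks in both libraries and under no H3K27me3 peak. The site of AP3 begins 349 bp downstream and lay under H3K27me3 in both libraries, with no H3K4me3. The site of EMF1, 186 bp downstream, lay under the peaks of all 4 libraries.

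FLAG-TRB1 peaks were found more often on H3K4me3-only than on H3K27me3-only genes. A FLAG-TRB1 peak lay in the window of 59.6%, 57.4%, 90.9% and 89.1% of H3K4me3-only genes and of 17.9%, 14.9%, 37.3% and 34.8% of H3K27me3-only genes in 4 libraries, where 43.2%, 40.6%, 69.9% and 67.7% of protein-coding genes had one. The difference, H3K4me3 only minus H3K27me3 only, was 48.0 ± 6.83 percentage points (SD, n = 4 libraries) and positive in 4 of 4. Counted on the gene body alone, for marks and FLAG peaks alike, it was 50.1 points. H3K4me3-only genes were longer than H3K27me3-only genes (median 2478 against 1583 bp). Their upstream 1 kb held part of another protein-coding gene more often (61.1% against 31.7%). The part of gene length and of neighbouring genes was not tested. Replicates 3 and 4 had 22365 and 21492 peaks and replicates 1 and 2 had 11117 and 10302, and within these pairs the difference was 53.6 and 54.3 and 41.8 and 42.5 points. Genes with both marks came close to the H3K4me3-only class, at 53.2%, 50.1%, 85.5% and 82.9%. Among them, genes with a stretch under all 4 lists had a FLAG-TRB1 peak in 32.4%, 30.5%, 71.9% and 67.2% of cases, against 60.2%, 56.7%, 90.04% and 88.2% of those without. The shares with a FLAG-TRB1 peak thus differed in the same direction in 4 of 4 libraries.

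For FLAG-TRB2 and FLAG-TRB3 the genes with both marks stood highest. FLAG-TRB2 peaks lay on 36.3%, 46.9%, 70.9% and 85.4% of genes with both marks, against 25.1%, 30.98%, 59.5% and 79.3% of H3K4me3-only genes, a difference of 11.2 ± 4.03 points, where 22.6%, 29.2%, 50.9% and 65.8% of protein-coding genes had one. FLAG-TRB3 peaks lay on 20.8%, 49.96%, 45.6% and 80.5% of genes with both marks, against 11.98%, 37.9%, 33.4% and 67.1% of H3K4me3-only genes, a difference of 11.6 ± 1.96 points, where 12.1%, 32.5%, 30.7% and 58.7% of protein-coding genes had one. In FLAG-TRB1 the same difference was -6.31 ± 0.762 points. Between H3K4me3-only and H3K27me3-only genes the difference was 14.3 ± 12.4 points for FLAG-TRB2, positive in 4 of 4 libraries, and 7.82 ± 8.07 points for FLAG-TRB3, positive in 3 of 4. With only peaks of -log10 q of at least 10, both for the FLAG peaks and for the mark classes, these were 4.61 and 0.533 points. That of FLAG-TRB1 was then 29.1 points. The lists differed in length. By library, the difference for FLAG-TRB2 was 5.84, 2.69, 18.9 and 29.7 points in lists of 6202, 8955, 16203 and 22509 peaks. For FLAG-TRB3 it was -1.45, 12.5, 3.91 and 16.3 points in lists of 3279, 9547, 9099 and 20475 peaks. The part of list length was not tested.

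FLAG-JMJ14 went the other way. Its peaks lay on 12.4% and 13.95% of H3K4me3-only genes, 27.4% and 28.7% of H3K27me3-only genes, 20.6% and 23.6% of genes with both marks and 26.3% and 27.6% of genes with neither, where 19.0% and 20.5% of protein-coding genes had one. The difference of H3K4me3 only minus H3K27me3 only was -14.8 ± 0.166 points (n = 2). It was -9.55 points with FLAG peaks and mark classes both from peaks of -log10 q of at least 10. By the exact two-sided sign-flip test over libraries, p was 0.12 for FLAG-TRB1 and FLAG-TRB2, the smallest that 4 libraries can give, 0.25 for FLAG-TRB3 and 0.5 for FLAG-JMJ14, the smallest for 2 libraries. After Benjamini-Hochberg adjustment over 12 comparisons, these became 0.188, 0.188, 0.333 and 0.5, so none passes 0.05. The FLAG libraries came from floral tissue and the marks from seedlings, and the classes could differ in flowers.

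**Figure D5:**
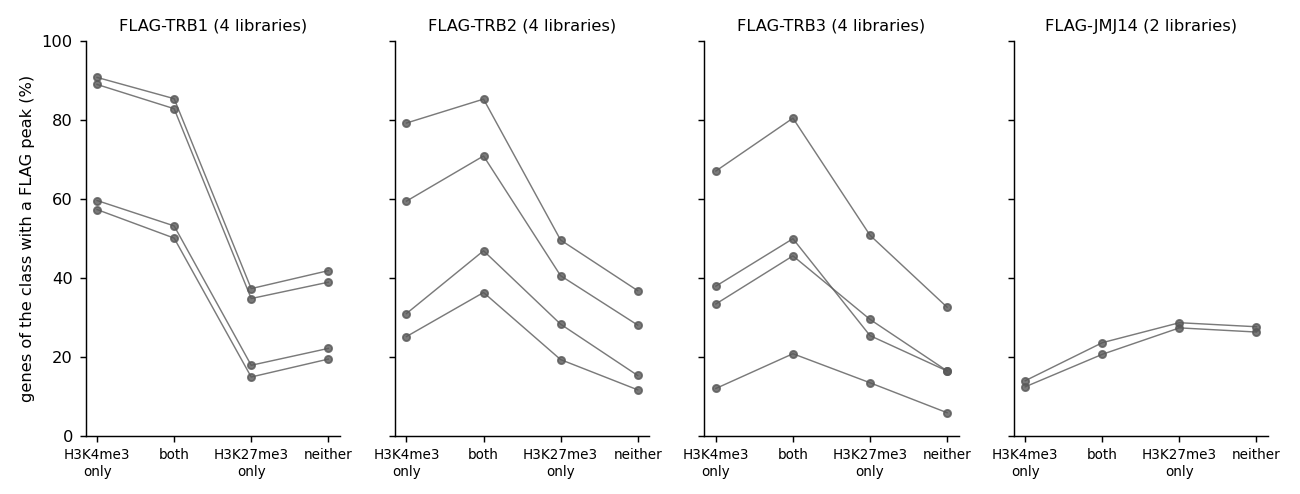
Share of protein-coding genes of each mark class of Col-0 seedlings (x axis) with a peak of FLAG-TRB1, FLAG-TRB2, FLAG-TRB3 or FLAG-JMJ14 in floral tissue (y axis, percent), with 1 line per library. All 4 FLAG-TRB1 lines drop from the H3K4me3-only to the H3K27me3-only class, all FLAG-TRB2 and FLAG-TRB3 lines are highest at both marks, and the 2 FLAG-JMJ14 lines climb from 12.4% and 13.95% to 27.4% and 28.7%.

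The classes of Col-0 seedlings were recovered to different degrees in other plants. In trb1/2/3 seedlings, with both marks again required in 2 libraries each, 96.1% of the 13862 H3K4me3-only genes and 77.8% of the 5956 H3K27me3-only genes had the same class. In fwa, which had 3 H3K4me3 and 2 H3K27me3 libraries, 97.0% and 84.5% of these genes had the same class. Genes with both marks had both in 66.3% of cases in trb1/2/3, and most of the rest, 28.5%, had H3K4me3 only. The shares in fwa were close to these, at 65.0% and 26.5%. Among H3K27me3-only genes, 431 (7.24%) had both marks in trb1/2/3 and 184 (3.09%) in fwa. By library, the genes with both marks in Col-0 had an H3K4me3 peak in 99.0% and 94.8% of cases in trb1/2/3 and in 94.9%, 95.6% and 95.2% in fwa. They had an H3K27me3 peak in 76.6% and 73.6% of cases in trb1/2/3 and in 77.8% and 85.6% in fwa. H3K4me3 lay on 17.4% and 10.5% of H3K27me3-only genes in trb1/2/3 and on 11.7%, 8.81% and 14.4% in fwa. In the 1 library of jmj14, where 67.8% of protein-coding genes had a peak, it lay on 13.1%, so that the genotypes overlapped. In Col-0 replicates 1 and 2 themselves, 600 and 37 of the 5956 genes had an H3K4me3 peak. The classes were chosen by the Col-0 lists, so the shares in this paragraph do not by themselves measure gain or loss.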

How the data were processed

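ChIP-seq libraries of Col-0 seedlings were analysed for H3K4me3 (replicates 1 and 2) and H3K27me3 (replicates 1 and 2). Per the study's methods, the authors trimmed reads, aligned them to TAIR10 with Bowtie 2 (unique mapping, no mismatch), used SAMtools 1.9 to drop duplicate reads, took peaks from MACS2 2.1.1 and discarded sites that gave peaks in several ChIP replicates of Col-0. Per the submitters' processing notes the build is TAIR10. The control of the peak calls is not given in the sources used here. The deposited peak lists give a fold enrichment, a linear ratio of a peak over its background, which was used here only for ranks within a list. They give a deposited -log10 q, which served for a stricter threshold of 10, and the position of the summit. Depth is unknown, so no interval from counts is given.

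Peaks on chromosomes 1 to 5 were set against the genes of RefSeq (TAIR10.1, whose chromosome sequences hold every peak end) in windows of the body plus 1 kb upstream, in Python 3.11.15 (numpy 2.4.6, scipy 1.17.1). The position of a gene, its exons and its product come from that annotation. Of 198 symbols in 21 lists 191 were matched. Marks were compared by an exact permutation test over libraries, and FLAG shares by an exact sign-flip test, all two-sided. The functions were tested on simulated data. Alternatives changed the peak threshold, list length, joining of peaks, window, overlap, gene types, replicates and replicate block. The members and gene lists were chosen with earlier results of these data known. Genes named in the text were all genes of the lists, by their cover, and the 5 leading protein-coding genes of each marked class by cover, and families were counted only. Organelle peaks, other columns and other files were not used.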

Additional observations from a re-analysis of the deposited data

Results flagged for a closer look

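The share of genes with a FLAG peak in H3K4me3-only minus H3K27me3-only genes stood out because every library of 1 factor lay on the opposite side of 0 from every library of another. It was positive in 4 of 4 FLAG-TRB1 libraries (48.0 percentage points on average) and in 4 of 4 FLAG-TRB2 libraries (14.3 points), and negative in 2 of 2 FLAG-JMJ14 libraries (-14.8 points). The difference between the factors was not tested.

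Some peaks lay outside the 5 chromosomes and entered no comparison. H3K4me3 replicate 1 had 112 peaks on the chloroplast genome, against 3 in replicate 2 and 1 in each H3K27me3 library. H3K27me3 replicates 1 and 2 had 109 and 72 peaks on the mitochondrial genome, against 0 in both H3K4me3 libraries.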

How the results depend on the processing

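Of 114 values recomputed under other settings, 2 changed direction and 7 counts of genes moved by over 1.5 times. Peaks per marked gene changed direction, to 0.0531 with peaks of -log10 q of at least 10 and to 0.0128 with nearby peaks joined, against -0.0476. The number of genes with both marks was 1411 at that threshold, 1482 with every list cut to the shortest, 929 on the gene body, 1443 within 500 bp of the TSS and 767 on the same bases, against 2961. H3K4me3-only genes numbered 10253 in the shortened lists, against 15824, and genes with neither mark 4914 when only protein-coding genes were counted, against 11380. The difference in median width was -1120 bp at the stricter threshold, -948 bp with peaks joined and -108 bp in shortened lists, against -184 bp. The cause was not tested.

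Without 1 library of a mark at a time, the difference in cover ranged from -5.60 Mb (without H3K4me3 replicate 1) to -1.62 Mb (without H3K4me3 replicate 2), that in median width from -267 to -101 bp (the same libraries), that in summits near the start from 35.3 to 36.4 points and that in genes with a peak from 19.99 to 24.8 points. Genes with both marks ranged from 3023 to 3651. Without FLAG-TRB2 replicate 4 the difference between the classes was 9.15 points, and without FLAG-TRB3 replicate 4 it was 5.001 points.

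With the replicate number as a block, the differences between the marks were the same, for example 22.4 points in genes with a peak, with an exact permutation p of 0.5, the smallest it allows. The numbers were not shown to pair the samples: deviations of same-numbered libraries correlated at 0.0213 over 119144 bins of 1 kb.

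The peak lists give no read depth, so whether a missing peak reflects an absent mark or a shallow library was not tested.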
